A study of Homo sapiens with 12 samples.

Results

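The expression of 10 genes of the DNA replication machinery was followed through the conversion of human embryonic stem cells into blood progenitors: the helicase subunit genes MCM2, MCM3, MCM4, MCM5, MCM6 and MCM7, the loader genes CDC6 and CDT1, the sliding clamp gene PCNA, and MKI67, which encodes the proliferation marker Ki-67. They were chosen by symbol, and all 10 were found, each on a single line, among the 56593 symbols of the expression table. RNA-seq had been done on 12 libraries, 3 from each of 4 populations. The first was undifferentiated H1, an established human embryonic stem cell line. The other populations were sorted from H1 cells given 40 ng/ml activin A and 50 ng/ml BMP4 for 2 days and, from then on, 40 ng/ml VEGF and 50 ng/ml bFGF: APLNR+ cells at day 2 (mesoderm), CD31+CD34+ cells at day 5 (the endothelial stage that gives rise to blood) and CD43+ cells at day 8 (hematopoietic progenitors). The activin A and BMP4 doses are those of the sample labels, and the study's methods give them exchanged (50 and 40 ng/ml). All populations come from 1 cell line, and no label says that replicates were separate cultures, so p-values measure only the spread between these libraries.

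The MCM2 to MCM7 proteins form a hexameric ring that unwinds DNA at the replication fork. In the G1 phase of the cell cycle the origin recognition complex, CDC6 and CDT1 load this ring onto DNA in an inactive form, a step called licensing, and geminin (GMNN) blocks CDT1 afterwards so that no origin is used again in the same cycle. PCNA is the ring that holds the polymerases on the template, and Ki-67 is a nuclear protein of cycling cells that coats mitotic chromosomes. Most of these genes are known targets of the E2F transcription factors, whose activity rises as cells commit to S phase, and many mitotic genes are controlled later in the cycle through CHR elements.

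Promoters of 8 of the 10 members were found in RefSeq (GRCh38.p14; 250 bases before to 50 after the annotated start). Letters of an E2F site (TTTGGCGC, TTTGCCGC, TTTCGCGC or TTTCCCGC, on either strand) stood in 7 of these 8, against 3.33% of 27305 promoters of the same length. The CCAAT box (CCAAT, either strand) stood in 6 of 8, against 35.7% of all, and CHR letters (TTTGAA or TTCGAA, either strand) in 2 of 8, against 16.6%. The promoters below are shown because they span these differences: MCM2 and CDT1, with E2F letters and no CCAAT; MCM6, with the most E2F matches, 4 in 2 overlapping pairs; PCNA, with both; and MKI67, with CCAAT and TTTGAA but no E2F letters. Capitals mark E2F and CCAAT matches.
MCM2, chr3:127598161-127598460, plus strand: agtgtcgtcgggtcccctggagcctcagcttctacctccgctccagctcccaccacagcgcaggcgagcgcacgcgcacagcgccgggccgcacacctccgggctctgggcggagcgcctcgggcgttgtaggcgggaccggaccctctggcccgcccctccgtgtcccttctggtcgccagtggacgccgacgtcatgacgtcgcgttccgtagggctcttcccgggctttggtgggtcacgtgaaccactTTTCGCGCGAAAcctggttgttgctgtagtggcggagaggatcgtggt
MCM6, chr2:135876394-135876693, minus strand: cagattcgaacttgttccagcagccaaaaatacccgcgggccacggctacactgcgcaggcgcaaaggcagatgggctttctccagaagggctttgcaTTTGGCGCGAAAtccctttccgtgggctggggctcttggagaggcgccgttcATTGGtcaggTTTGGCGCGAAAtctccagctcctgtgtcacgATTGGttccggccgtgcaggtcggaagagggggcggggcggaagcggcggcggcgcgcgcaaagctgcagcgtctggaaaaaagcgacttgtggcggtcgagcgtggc
CDT1, chr16:88803539-88803838, plus strand: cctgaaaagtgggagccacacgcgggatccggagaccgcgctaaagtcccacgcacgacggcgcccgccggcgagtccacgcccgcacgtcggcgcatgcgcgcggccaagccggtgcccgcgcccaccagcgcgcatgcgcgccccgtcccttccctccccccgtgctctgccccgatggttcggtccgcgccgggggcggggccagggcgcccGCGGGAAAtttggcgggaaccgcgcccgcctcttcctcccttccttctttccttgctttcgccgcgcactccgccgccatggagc
PCNA, chr20:5126573-5126872, minus strand: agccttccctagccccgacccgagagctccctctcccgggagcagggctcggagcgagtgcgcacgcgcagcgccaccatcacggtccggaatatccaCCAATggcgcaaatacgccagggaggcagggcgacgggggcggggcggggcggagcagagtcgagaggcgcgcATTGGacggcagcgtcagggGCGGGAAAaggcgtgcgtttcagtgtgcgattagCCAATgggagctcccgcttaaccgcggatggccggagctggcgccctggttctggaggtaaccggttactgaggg
MKI67, chr10:128126374-128126673, minus strand: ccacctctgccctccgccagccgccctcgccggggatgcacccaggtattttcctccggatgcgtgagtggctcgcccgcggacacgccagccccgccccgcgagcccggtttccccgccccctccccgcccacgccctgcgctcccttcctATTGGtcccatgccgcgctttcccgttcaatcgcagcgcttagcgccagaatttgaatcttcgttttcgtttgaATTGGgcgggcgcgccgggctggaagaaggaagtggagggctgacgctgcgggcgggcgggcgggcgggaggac
In MCM2 the E2F letters began 2 bases after the start, as the palindrome TTTCGCGCGAAA that reads as a match on both strands. In PCNA and CDT1 they lay 59 and 35 bases before it. The TTTGAA letters of MKI67 lay 47 and 29 bases before its start, and MCM6 held TTCGAA 246 bases before its start. These stand in lower case above, except the last base of the nearer MKI67 match, which also belongs to a CCAAT match. A match of letters is a description of the sequence and was not tested as a binding site.

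The sorted populations carried the markers of their labels. Summed FPKM of 4 mesoderm markers was 446 to 487 in APLNR+ libraries and at most 0.901 in H1, but also 387 to 435 in CD31+CD34+ libraries, most of it APLNR (a mean of 403 FPKM). The 4 endothelial markers summed to 380 to 531 in CD31+CD34+ cells, and to 216 to 293 in CD43+ cells. The 4 blood markers summed to 145 to 194 in CD43+ cells and 13.1 to 16.2 in CD31+CD34+ cells, where PTPRC was listed at 0. In CD43+ cells too only 3 of the 4 reached a mean of 1 FPKM, and PTPRC averaged 0.0718 FPKM over the 12 libraries. A listed 0 need not mean that a gene was not expressed, since EEF1A1, which every cell uses, was at 0 in 6 libraries. Pluripotency markers fell from 1484 to 1554 in H1 to 121 to 141 in CD43+ cells, and 4 endoderm markers reached 62.3 to 70.0 in APLNR+ and 56.6 to 62.1 in CD31+CD34+ cells. The 4 neural markers summed to 137 to 181 in H1, 94.1 to 113 in APLNR+, 145 to 165 in CD31+CD34+ and 21.5 to 26.7 in CD43+ cells. Only 2 of these 4 reached a mean of 1 FPKM in any population. The part of other cells in the results was not tested. Levels are in FPKM, fragments per kilobase of transcript scaled to the mapped total of the library, so genes can be set beside each other. In bulk RNA, fewer cells that express a gene and less RNA per cell cannot be told apart.

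A property of the libraries moved with several results. Between APLNR+ and CD31+CD34+ cells, genes in the lowest tercile of transcript GC content had a median log2 change of -0.74 and those in the highest tercile of 0.57 (Pearson r = 0.50 across 14593 genes, which are not independent replicates). From H1 to APLNR+ these medians were -0.21 and -0.04, and from CD31+CD34+ to CD43+ they were 0.17 and -0.22. The members spanned this range, from MCM6 (43.1% GC), PCNA (45.3%), CDC6 (45.5%), MKI67 (48.3%) and MCM4 (48.5%) over MCM3 (51.6%) to MCM5 (57.0%), MCM7 (57.6%), MCM2 (58.1%) and CDT1 (64.9%). Changes are therefore also given after a smoothed trend on GC was taken off each library, and are then called GC-corrected. This removes any shift shared by genes of like GC content, whatever its source, and the source was not tested. The study names more than 1 sequencing company without saying which sequenced which library, so a difference between companies and one between populations cannot be told apart.

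From H1 to APLNR+ cells, transcripts of the whole helicase fell together. All 6 subunits passed the test lower (limma on log2(FPKM + 1), adjusted p under 0.05), as did CDC6 and PCNA, while MKI67 alone rose and CDT1 did not pass. This makes 9 of 10 members past the threshold, 8 of them lower and 1 higher, against 57.9% of 14840 genes past it in either direction, 35.2% lower and 22.7% higher. MCM2, MCM3 and MCM5 fell by at least 2-fold, against 7.62% of all genes. The median log2 change of the members was -0.81, and that of all genes -0.12. GC-corrected, CDT1 passed lower as well (-0.27), so 9 members were lower and 1 higher, against 31.7% and 28.9% of all genes.

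**Figure D1:**
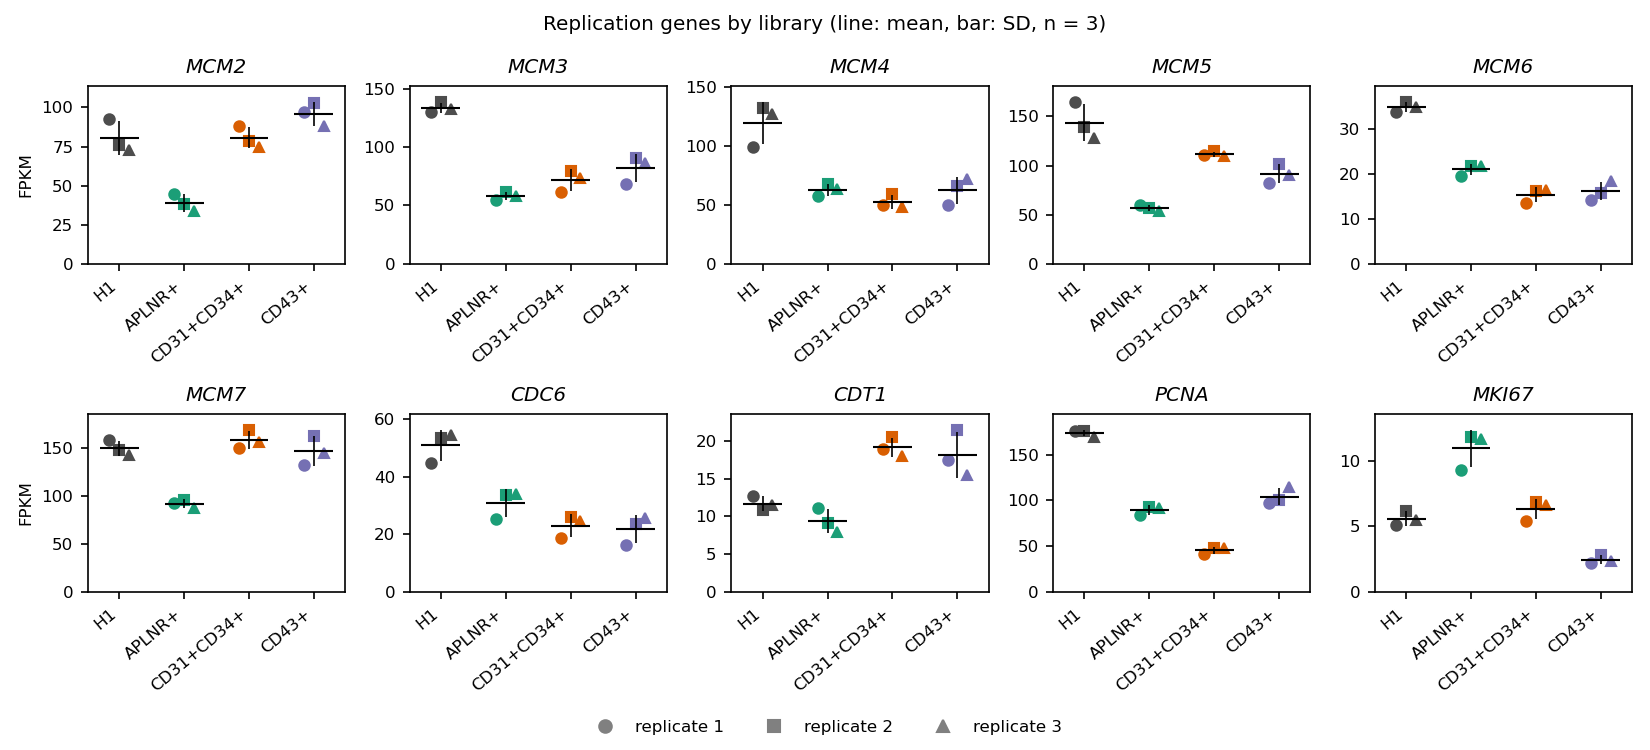
FPKM of the 10 members (y axis, from 0) in the 4 populations (x axis). Each point is a library, the line is the mean and the bar the SD of 3. The 6 MCM genes, CDC6 and PCNA sit lower in every APLNR+ library than in any H1 library, and MKI67 sits higher.

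MCM5 showed the deepest fall of the 6. It stood at 165, 139 and 128 FPKM in the H1 libraries and at 59.8, 57.0 and 54.0 in the APLNR+ libraries. The populations did not overlap, and the log2 change was -1.32 (SE 0.11, adjusted p = 5.58e-07). MCM3 fell from 130, 138 and 133 to 54.7, 61.5 and 58.2 FPKM (log2 change -1.19, SE 0.12, adjusted p = 4.34e-06). MCM2 fell from 92.9, 76.0 and 72.9 to 44.7, 38.0 and 33.6 FPKM (log2 change -1.04, SE 0.12, adjusted p = 1.97e-05). These genes are partners in the ring, and each APLNR+ mean was 39.6% to 48.1% of the H1 mean. MCM4 went from 98.7, 132 and 127 to 57.2, 67.4 and 63.3 FPKM (log2 change -0.91, SE 0.15, adjusted p = 0.000259). MCM6, the least abundant subunit transcript, went from 33.8, 35.9 and 34.9 to 19.5, 21.8 and 21.7 FPKM (-0.71, SE 0.11, adjusted p = 0.00013). MCM7 went from 158, 148 and 143 to 91.8, 95.8 and 86.7 FPKM (-0.70, SE 0.09, adjusted p = 4.56e-05). In these 3 genes too every APLNR+ library lay below every H1 library. The summed FPKM of the 6 genes was 662 ± 21.1 in H1 and 329 ± 12.02 in APLNR+ cells (mean ± SD, n = 3). The GC-corrected falls stayed between -0.55 (MCM6) and -1.28 (MCM5) and all 6 passed. With small RNAs left out and each library rescaled, MCM6 and MCM7 missed the threshold at -0.50 and -0.49 (adjusted p = 0.0566 and 0.0608).

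From APLNR+ to CD31+CD34+ cells the subunits parted. MCM2, MCM5 and MCM7 rose, MCM3 rose slightly, MCM6 fell, and MCM4 did not pass. With the other members, 8 of 10 passed, 5 higher and 3 lower, where 73.8% of all genes passed, 35.9% higher and 37.9% lower. MCM2 alone reached 2-fold, against 12.5% of all genes called higher. Counted in either direction, the number of members at 2-fold depended on single libraries. It was 0 without APLNR+ replicate 3 or CD31+CD34+ replicate 1. The same count was 2 without CD31+CD34+ replicate 2 or 3, and 3 without APLNR+ replicate 1. In these fits 4064 of 14576 to 4486 of 14577 genes were called in either direction.

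MCM2 returned to 88.4, 78.8 and 74.9 FPKM, close to its H1 values (log2 change from APLNR+ 1.04, SE 0.12, adjusted p = 1.06e-05). MCM5 reached 111, 115 and 110 FPKM (0.96, SE 0.11, adjusted p = 5.22e-06), still below every H1 library. MCM7 reached 150, 168 and 156 FPKM (0.78, SE 0.09, adjusted p = 1.02e-05), the highest mean of any subunit in these cells. For these 3 genes all CD31+CD34+ libraries lay above all APLNR+ libraries. MCM3, at 61.3, 79.9 and 73.6 FPKM, overlapped with APLNR+ (0.29, SE 0.12, adjusted p = 0.0452). MCM4, at 50.0, 59.0 and 48.2 FPKM, also overlapped (-0.26, SE 0.15, adjusted p = 0.143). MCM6 declined further to 13.4, 16.2 and 16.4 FPKM with no overlap (-0.43, SE 0.11, adjusted p = 0.00312). The call for MCM3 was lost on leaving out any H1 or APLNR+ library, CD31+CD34+ replicate 2 or 3, or CD43+ replicate 3 (adjusted p = 0.0507 to 0.174).

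The genes that rose at this step were those of highest GC content, and their GC-corrected rises were smaller: 0.47 for MCM2 (adjusted p = 0.00136), 0.42 for MCM5 (adjusted p = 0.000385) and 0.23 for MCM7 (adjusted p = 0.00444). These 3 still passed. GC-corrected, MCM3 changed by 0.04 (adjusted p = 0.708) and MCM6 by 0.05 (adjusted p = 0.488), so the calls for both were lost and the sign of MCM6 turned, while MCM4 passed lower at -0.30 (adjusted p = 0.0362). No member reached 2-fold after the correction, where 9.11% of all genes were called higher and 10.1% lower.

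**Figure D2:**
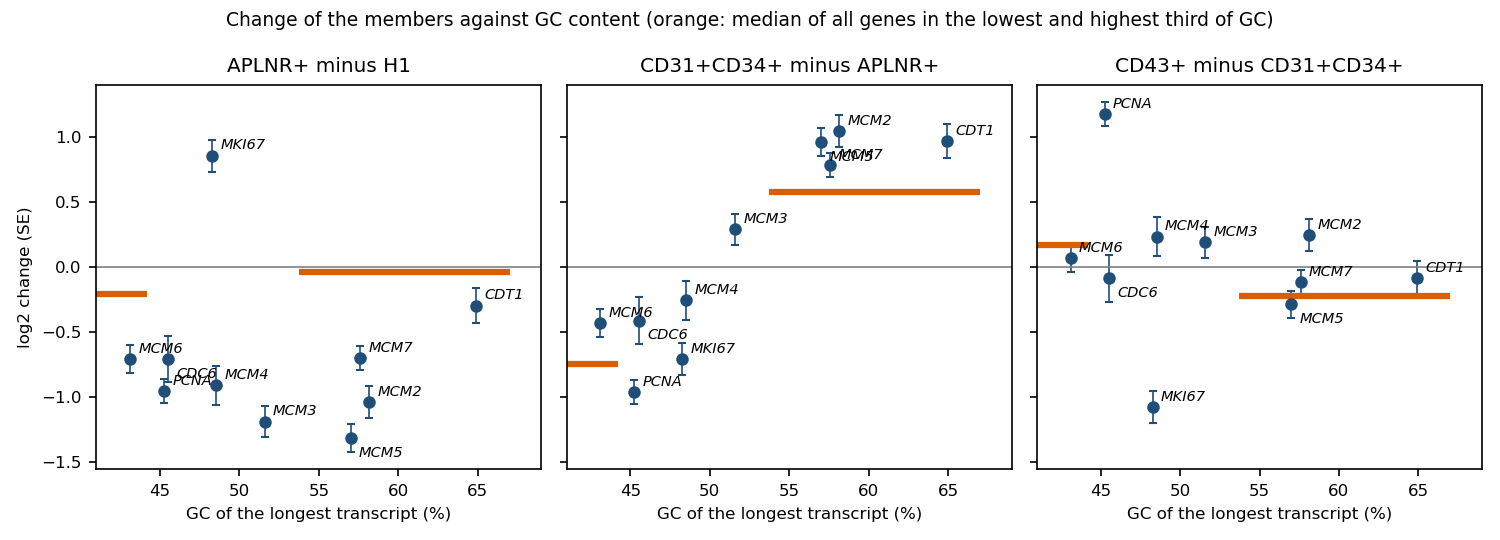
log2 change of each member (y axis, bar SE) against the GC content of its longest transcript (x axis, %) at the 3 successive steps. Orange lines give the median change of all genes in the lowest and the highest tercile of GC. At the second step MCM5, MCM7, MCM2 and CDT1, in the highest tercile, lie between 0.78 and 1.04, and MCM6, PCNA, CDC6, MKI67 and MCM4 lie below 0.

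From CD31+CD34+ to CD43+ cells the helicase changed little. MCM5 fell to 82.5, 102 and 90.3 FPKM (log2 change -0.29, SE 0.11, adjusted p = 0.0367), and the other 5 subunits did not pass. MCM2 stood at 96.9, 103 and 88.0 FPKM, MCM3 at 68.6, 90.6 and 86.5, MCM4 at 49.6, 65.7 and 71.7, MCM6 at 14.3, 15.8 and 18.4, and MCM7 at 131, 162 and 145, each overlapping with CD31+CD34+ cells. GC-corrected, the fall of MCM5 was -0.12 (adjusted p = 0.21), and MCM2 and MCM3 passed higher at 0.44 (adjusted p = 0.0027) and 0.25 (adjusted p = 0.0154). The MCM5 call was also lost without H1 or APLNR+ replicate 2, any CD31+CD34+ library, or CD43+ replicate 1 or 3 (adjusted p = 0.0501 to 0.128). Over all members, 3 of 10 passed at this step, 1 higher and 2 lower, against 53.6% of all genes, 25.9% higher and 27.8% lower.

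Set against H1, the CD43+ cells carried 61.3% of the H1 mean for MCM3, 52.3% for MCM4, 63.7% for MCM5 and 46.3% for MCM6. All 4 were lower (log2 changes -0.71, -0.93, -0.64 and -1.07; adjusted p = 0.000165, 0.000112, 0.000131 and 1.62e-06). MCM2 (log2 change 0.25, adjusted p = 0.084) and MCM7 (97.8% of the H1 mean, log2 change -0.04, adjusted p = 0.742) did not pass. Of the 10 members, 8 passed, 7 lower and 1 higher, against 74.6% of all genes, 41.5% lower and 33.2% higher. MCM6 and CDC6 were at least 2-fold lower, against 22.5% of all genes, and only 1 member was so without CD43+ replicate 1. GC-corrected, no member reached 2-fold, where 14.9% of all genes were called higher and 15.2% lower. MCM6 then stood at -0.55, and MCM7 passed lower at -0.38 (adjusted p = 9.63e-05).

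In CD31+CD34+ against H1 cells, 7 of 10 members passed, 6 lower and 1 (CDT1) higher, against 77.3% of all genes, 41.4% lower and 35.9% higher, and MCM4, MCM6, CDC6 and PCNA were at least 2-fold lower, against 23.2%. GC-corrected, 8 passed lower and 1 higher, the latter MKI67 (0.21, adjusted p = 0.0445) and not CDT1. The GC-corrected shares of all genes were 36.2% lower and 38.2% higher. MCM6 (-0.50) and CDC6 (-0.78) were then no longer 2-fold lower, and MCM3 was (-1.09). In CD43+ against APLNR+ cells 8 passed, 5 higher and 3 lower, against 74.1% of all genes, 34.5% higher and 39.6% lower. There MCM2 was 2-fold higher, against 14.1% of all genes, and MKI67 2-fold lower, against 19.4%. CDC6 passed lower there (log2 change -0.50, adjusted p = 0.0247) and not without APLNR+ replicate 2 or 3 or CD43+ replicate 1 (adjusted p = 0.0823 to 0.113). No library of one population fell within the range of the other for 9 members in APLNR+ against H1, 7 in CD31+CD34+ against APLNR+ and 3 in CD43+ against CD31+CD34+ cells, and all genes tested gave 66%, 75.7% and 58%. For CD43+ against H1, CD31+CD34+ against H1 and CD43+ against APLNR+ these counts were 8, 7 and 8, and all genes gave 76.3%, 79% and 75.4%. The share of members was above that of all genes at the first step and below it at the third, and no test was made of either.

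The subunits differed in the order of their levels across populations. MCM3, MCM4, MCM5 and MCM6 were highest in H1. MCM2 and MCM7 were highest in CD43+ and CD31+CD34+ cells respectively, but for both genes CD31+CD34+, CD43+ and H1 did not differ from their neighbours in the order (adjusted p from 0.115 to 0.965), and only the step down to APLNR+ passed. For MCM6, H1 stood above APLNR+ and APLNR+ above CD43+ (adjusted p = 0.00013 and 0.00852), while CD43+ and CD31+CD34+ did not differ beyond their spread (adjusted p = 0.625). GC-corrected, MCM6 no longer passed between APLNR+ and CD43+ cells (adjusted p = 0.968). MCM4 passed between H1 and the next population and at no later place in its order. CD31+CD34+ compared with H1 directly gave GC-corrected changes of -0.53 for MCM2 (adjusted p = 0.000436) and -0.44 for MCM7 (adjusted p = 2.48e-05), where the uncorrected values were 0.01 and 0.08.

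**Figure D3:**
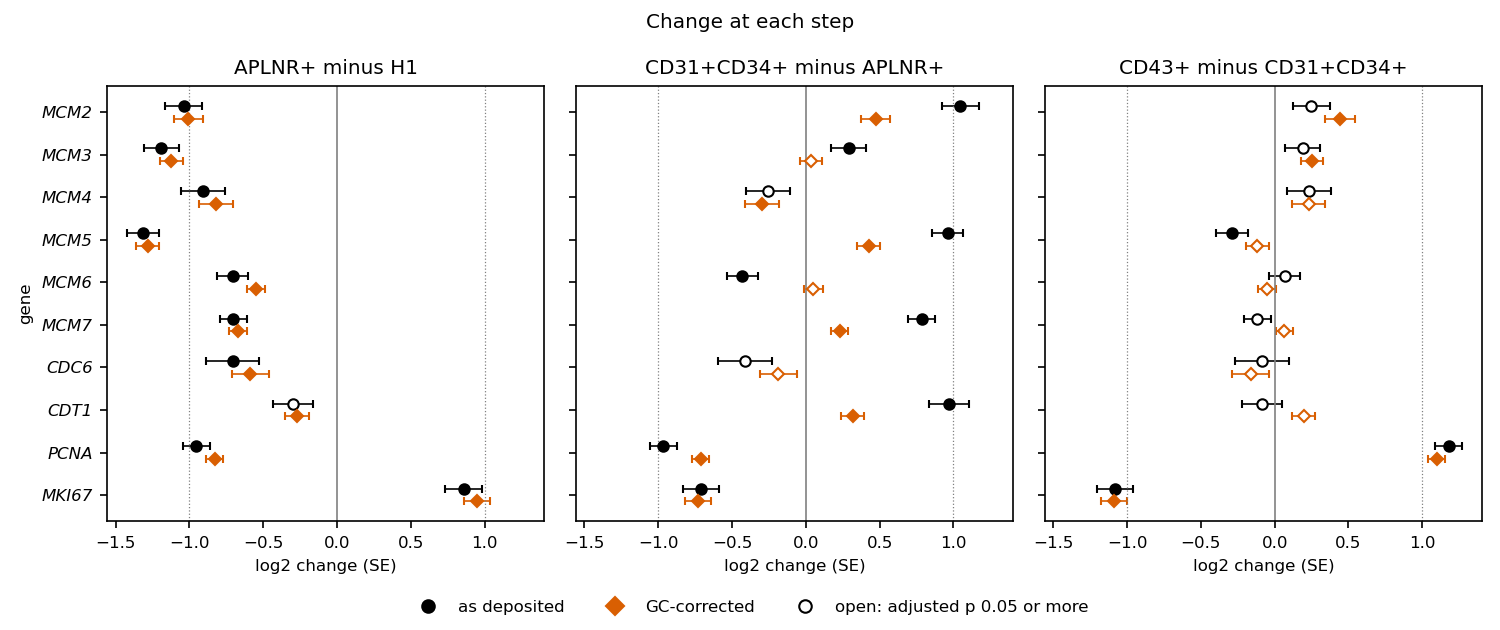
log2 change (x axis, bar SE) of the 10 members (y axis) at each step, as deposited (black circles) and GC-corrected (orange diamonds). Filled symbols passed at an adjusted p under 0.05 and dotted lines mark 2-fold. At the first step both estimates lie close together, at the second the rises of MCM2, MCM5, MCM7 and CDT1 shrink, and PCNA and MKI67 pass in the same direction at all 3 steps in both.

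The make-up of the helicase transcripts was read from each gene's share of the summed FPKM of MCM2 to MCM7 in a library. In H1 the shares of MCM7, MCM5, MCM3 and MCM4 were alike, at 22.6 ± 0.603%, 21.7 ± 2.25%, 20.2 ± 0.878% and 18.1 ± 3.03% (SD, n = 3). MCM6 held only 5.28 ± 0.256%. The most abundant subunit transcript exceeded the least abundant by 4.28-fold in H1 cells, 4.36-fold in APLNR+ libraries, 10.3-fold at the CD31+CD34+ stage and 9.05-fold at the CD43+ stage. MCM6 held 5.96%, 6.38% and 6.82% in the APLNR+ replicates and 2.83%, 3.14% and 3.43% in the CD31+CD34+ replicates, without overlap. MCM4 went from 19.0 ± 1.38% to 10.7 ± 0.682%, and MCM7 from 27.8 ± 0.417% to 32.3 ± 0.539%. MCM2 rose in share from 11.8 ± 1.63% in APLNR+ to 19.5 ± 2.16% in CD43+ libraries, again without overlap. Each of these differences had an exact two-sided permutation p of 0.1, the smallest that 3 against 3 libraries allow, so none can pass 0.05 (36 comparisons, smallest adjusted p = 0.129). MCM2 over MCM6 was 1.86 ± 0.382 in APLNR+ and 5.33 ± 1.09 in CD31+CD34+ cells (exact permutation p = 0.1). MCM6 has the lowest and MCM2 the highest GC content of the 6, and from their GC-corrected changes (0.05 and 0.47) the ratio rose 1.34-fold, against 2.86-fold as deposited. From H1 to CD31+CD34+ cells this ratio changed 0.97-fold GC-corrected, against 2.29-fold as deposited. GC-corrected, MCM7, MCM6 and MCM2 fell there by similar amounts (-0.44, -0.50 and -0.53), and MCM5, MCM3 and MCM4 fell further (-0.86, -1.09 and -1.12). The shares and the fold between subunits above carry no such correction.

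**Figure D4:**
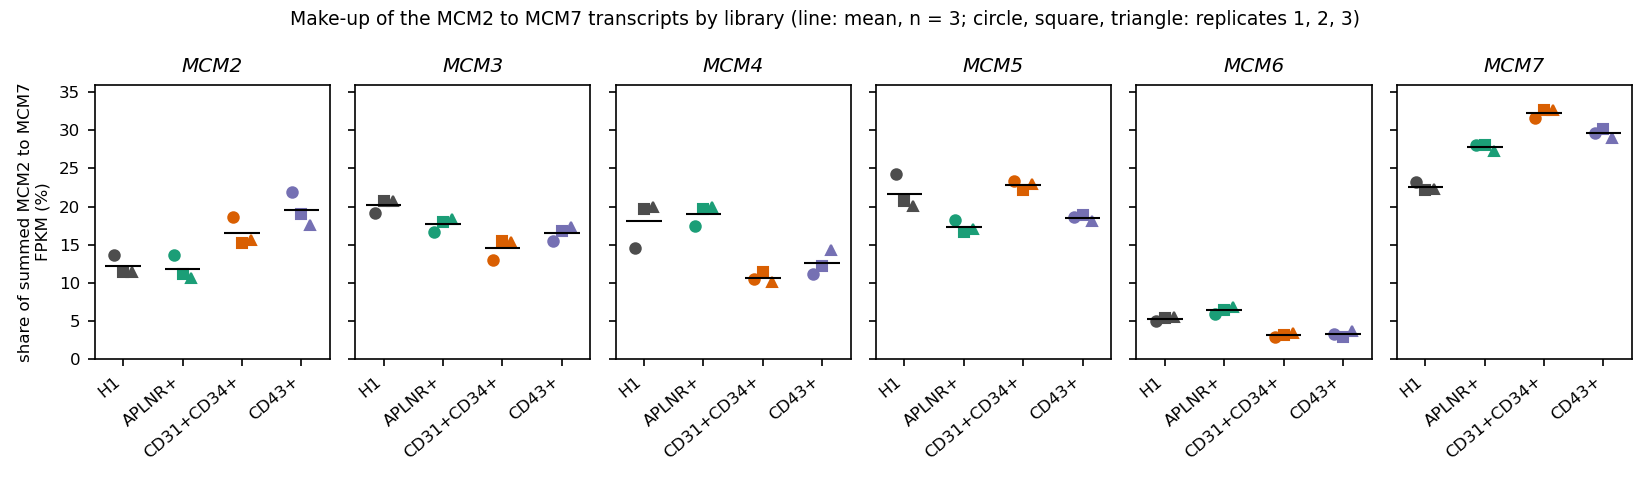
Share of each subunit gene in the summed FPKM of MCM2 to MCM7 (y axis, %) by population (x axis). Points are libraries and lines means of 3. As deposited, without GC correction, MCM6 and MCM4 hold less, and MCM2 and MCM7 more, in the CD31+CD34+ and CD43+ libraries than in H1.

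The 2 loaders took different courses. CDC6, the ATPase that brings the ring to the origin, stood at 44.7, 53.5 and 54.5 FPKM in H1 and 25.2, 33.8 and 33.8 in APLNR+ cells (log2 change -0.71, SE 0.18, adjusted p = 0.00511). It was 18.6, 25.9 and 24.5 FPKM in CD31+CD34+ cells and 16.2, 23.5 and 25.6 in CD43+ cells. All H1 libraries lay above all others, and neither later step passed (adjusted p = 0.0559 and 0.713). The second step (log2 change -0.41) passed under 9 of 25 alternatives, with an adjusted p from 0.000336 to 0.208 over all of them. CD43+ cells held 42.8% of the H1 mean (log2 change -1.21, SE 0.18, adjusted p = 5.86e-05; GC-corrected -0.94). With small RNAs left out and the libraries rescaled, the first fall was -0.50 and did not pass (adjusted p = 0.116).

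CDT1, which delivers the MCM ring, was the only member that passed higher in CD43+ cells than in H1. It stood at 12.7, 10.8 and 11.5 FPKM in H1, and at 11.1, 9.09 and 7.94 in APLNR+ cells, which overlapped with H1 (log2 change -0.30, SE 0.13, adjusted p = 0.0769). CDT1 passed lower at this step under 4 of 25 alternatives, the GC correction (-0.27) among them. In CD31+CD34+ cells it was 19.0, 20.5 and 18.0 FPKM, above every earlier library (0.97, SE 0.13, adjusted p = 3.69e-05). In CD43+ cells it was 17.4, 21.4 and 15.5 FPKM, 155% of the H1 mean (0.59 against H1, SE 0.13, adjusted p = 0.00169). CDT1 has the highest GC content of the members. GC-corrected, its rise was 0.32 from APLNR+ (adjusted p = 0.00391), 0.24 from H1 to CD43+ (adjusted p = 0.0155) and 0.04 from H1 to CD31+CD34+ cells (adjusted p = 0.624), where the uncorrected value was 0.67. In its annotated transcripts 2.97% of 50-base stretches are shared with another gene, AC003681.1, the largest share among the members.

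Geminin, the inhibitor of CDT1, went the other way at the step from APLNR+ to CD31+CD34+ cells. GMNN was 50.5, 48.2 and 48.8 FPKM in H1 and 28.0, 30.2 and 30.9 in APLNR+ cells. It was 9.71, 8.92 and 9.05 in CD31+CD34+ and 12.8, 11.4 and 13.4 in CD43+ cells. The 4 populations did not overlap, and the step to CD31+CD34+ was the largest (log2 change -1.59, SE 0.08, adjusted p = 9.13e-09; GC-corrected -1.16, adjusted p = 4.84e-07). The FPKM of CDT1 over that of GMNN was therefore 0.237 ± 0.0133 in H1 and 0.318 ± 0.0713 in APLNR+ libraries (SD, n = 3). It was 2.08 ± 0.189 in CD31+CD34+ libraries, against 1.47 ± 0.374 in those of CD43+ cells. The rise from APLNR+ to CD31+CD34+ was 6.64-fold (exact permutation p = 0.1, the smallest possible; 60 ratio comparisons, smallest adjusted p = 0.12). From the GC-corrected changes of both genes, 0.32 and -1.16 on the log2(FPKM + 1) scale, the rise was 2.77-fold. CDT1 over CDC6 rose 2.78-fold at the same step, from 0.315 ± 0.110 to 0.849 ± 0.149, with the same p, and 1.42-fold from the GC-corrected changes.

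The genes of a list drawn up for CDT1 turnover did not share a course. These were SKP2, DTL, DDB1, CUL4A, CUL4B, FZR1 and CDC20, whose products need not all act on CDT1. Of the 7 listed, 2 rose and 2 fell at the first step, 3 rose and 2 fell at the second, and 2 rose and 3 fell at the third. The shares of all genes that rose and fell were 22.7% and 35.2%, 35.9% and 37.9%, and 25.9% and 27.8%. SKP2, an F-box protein that targets CDT1, averaged 41.8, 56.7, 22.2 and 17.1 FPKM in H1, APLNR+, CD31+CD34+ and CD43+ cells, and passed at every step (log2 changes 0.43, -1.32 and -0.35). DTL, the adaptor that recognises CDT1 bound to PCNA, averaged 24.5, 12.03, 12.2 and 17.0 FPKM and passed at the first and the third steps (-0.98, adjusted p = 0.0003; 0.45, adjusted p = 0.0386). DDB1, the linker of that ligase, rose from 82.5 to 146 FPKM between APLNR+ and CD31+CD34+ cells (0.82, adjusted p = 2.41e-05; GC-corrected 0.45).

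Of 14 other genes of origin recognition and licensing control, 8 fell and 1 rose from H1 to APLNR+ cells, where 35.2% and 22.7% of all genes did. From APLNR+ to CD31+CD34+ cells 12 fell, 7 of them by at least 2-fold, and the other 2 did not pass, against 37.9% of all genes lower. From there to CD43+ cells 7 rose and 1 fell, against 25.9% and 27.8%. At the second step the median log2 change of the list was -1.25, against -0.01 over all genes. GC-corrected, it was -0.72 with 10 lower and 1 higher, against 33.2% and 33% of all genes. ORC1, the largest subunit of the recognition complex, averaged 23.5, 13.2, 10.6 and 13.4 FPKM, and ORC6 averaged 26.3, 34.7, 18.3 and 14.4. MCM10, which acts in starting the helicase, went from 23.8 ± 0.679 in H1 to 13.3 ± 1.06 FPKM in APLNR+ cells (log2 change -0.79, adjusted p = 0.000124), and then to 9.65 ± 0.872 FPKM (-0.43, adjusted p = 0.0063; GC-corrected 0.03, adjusted p = 0.712). MCMBP, which binds MCM proteins, passed at none of the 3 steps (log2 changes -0.05, -0.46 and 0.01; adjusted p = 0.868, 0.0706 and 0.978). CDC45, the helicase cofactor that joins the ring when the fork fires, stood at 13.9 FPKM in H1 and 14.0 in APLNR+ cells and rose to 18.5 and 23.8 FPKM (0.38, adjusted p = 0.00662; 0.34, adjusted p = 0.0176); GC-corrected, the first rise was 0.14 and did not pass (adjusted p = 0.115), and the second was 0.40 (adjusted p = 0.000636).

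PCNA changed at every step. It stood at 176, 176 and 170 FPKM in H1 and at 83.7, 92.9 and 91.7 in APLNR+ cells, and fell again to 40.8, 48.0 and 47.4 FPKM in CD31+CD34+ cells. In CD43+ cells it was back at 96.9, 101 and 114 FPKM. No population overlapped with any other. The log2 changes were -0.95 (SE 0.09, adjusted p = 2.95e-06), -0.97 (SE 0.09, adjusted p = 1.51e-06) and 1.18 (SE 0.09, adjusted p = 5.23e-07), and GC-corrected they were -0.83, -0.71 and 1.10, all past the threshold. PCNA was the member called higher by at least 2-fold in CD43+ against CD31+CD34+ cells, where 5.58% of all genes were. With transcript length corrected as well as GC, it still passed there but fell short of 2-fold. Its longest transcript is short, at percentile 13.7 of length among genes tested. CD31+CD34+ cells held 26.1% of the H1 mean and CD43+ cells 59.8%, and CD43+ and APLNR+ cells did not differ past the threshold (log2 change 0.21, adjusted p = 0.0538), but did so GC-corrected (0.38, adjusted p = 7.8e-05).

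At the second step PCNA and MCM6 passed lower while MCM2, MCM3, MCM5 and MCM7 passed higher. GC-corrected, MCM6 (0.05) and MCM3 (0.04) no longer passed. PCNA over MCM3 was 1.30 ± 0.0440 in H1 cells, 1.54 ± 0.0334 in APLNR+ libraries, 0.637 ± 0.0327 at the CD31+CD34+ stage and 1.28 ± 0.155 at the CD43+ stage (exact permutation p = 0.1 for each of the 2 latter steps). DUT, which keeps uracil out of DNA, had a similar order: 98.6, 68.7, 41.9 and 106 FPKM, with a log2 change of 1.32 into CD43+ cells (adjusted p = 2.53e-07; GC-corrected 1.21). FEN1, the flap nuclease that works on PCNA, did not: it averaged 49.9, 45.8, 38.6 and 34.7 FPKM and did not pass at the last step (-0.15, adjusted p = 0.157). RRM2, the small subunit of ribonucleotide reductase, averaged 62.6, 46.9, 41.4 and 36.9 FPKM and passed at the first of the 3 steps alone (-0.42, adjusted p = 0.00371). POLD1 and POLD2, subunits of the polymerase that PCNA holds, followed the GC-rich MCM genes instead, with falls of -0.52 and -0.45 and then rises of 0.90 and 0.80 (GC-corrected 0.25 and 0.20). The processed copies PCNAP1, PCNAP3 and PCNAP4 were listed at 0 in all 12 libraries.

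MKI67 was the 1 member that peaked in APLNR+ cells. It stood at 5.09, 6.17 and 5.46 FPKM in H1 and at 9.31, 11.8 and 11.7 in APLNR+ cells (log2 change 0.86, SE 0.12, adjusted p = 8.97e-05). In CD31+CD34+ cells it was 5.43, 6.85 and 6.59 FPKM (-0.71, SE 0.12, adjusted p = 0.000236), overlapping with H1. In CD43+ cells it was 2.19, 2.80 and 2.33 FPKM, below every other library (-1.08, SE 0.12, adjusted p = 1.47e-05). GC-corrected changes were 0.95, -0.73 and -1.09. It was the member called lower by 2-fold at the last step, as 8.79% of all genes were. With transcript length corrected as well as GC, it still passed there but fell short of 2-fold. Its longest transcript lies at percentile 98.5 of length among genes tested. At the low levels of MKI67 a change on the log2(FPKM + 1) scale understates the fold: CD43+ cells held 43.8% and APLNR+ cells 196% of the H1 mean.

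Ki-67 and the helicase therefore moved in opposite directions at the first step. MKI67 over MCM2 was 0.0703 ± 0.0138 in H1 cells, 0.289 ± 0.0722 in APLNR+ libraries, 0.0788 ± 0.0150 at the CD31+CD34+ stage and 0.0255 ± 0.00248 at the CD43+ stage. The rise into APLNR+ was 4.07-fold (exact permutation p = 0.1), and 3.88-fold from the GC-corrected changes. At the last step MKI67 and PCNA parted: MKI67 over PCNA went from 0.138 ± 0.00488 to 0.0236 ± 0.00385. This was a 0.170-fold change, and 0.219-fold from the GC-corrected changes.

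Other mitotic genes shared the late part of this course. Of 24 listed genes, 7 rose and 5 fell from H1 to APLNR+, 3 rose and 16 fell to CD31+CD34+, and 1 rose and 12 fell to CD43+. Of all genes, 22.7% rose and 35.2% fell at the first step, 35.9% and 37.9% at the second, and 25.9% and 27.8% at the third. All 24 were lower in CD43+ than in APLNR+ cells, against 39.6% of all genes. Their median log2 change was -1.27, against -0.07 over all genes. GC-corrected, all 24 were lower with a median of -1.14, against 35.7% of all genes. CCNB1, cyclin B1, averaged 170, 154, 130 and 79.7 FPKM, and its last step passed (-0.70, adjusted p = 0.000863). UBE2C, the ubiquitin-conjugating enzyme of the anaphase-promoting complex, averaged 87.3, 82.9, 59.5 and 44.1 FPKM and passed at the second and the third steps (-0.47, adjusted p = 0.0096; -0.43, adjusted p = 0.0228). TOP2A, the topoisomerase that untangles chromosomes, fell from 41.8 ± 7.02 FPKM in APLNR+ to 7.30 ± 1.44 in CD31+CD34+ cells (-2.37, SE 0.17, adjusted p = 1.12e-07; GC content 39.1%, GC-corrected -1.51). Markers of cycling cells thus did not change in step, and MKI67 over TOP2A was 0.0912, 0.263, 0.873 and 0.332 on average in the 4 populations (a 3.31-fold rise at the second step, 1.71-fold from the GC-corrected changes).

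**Figure D5:**
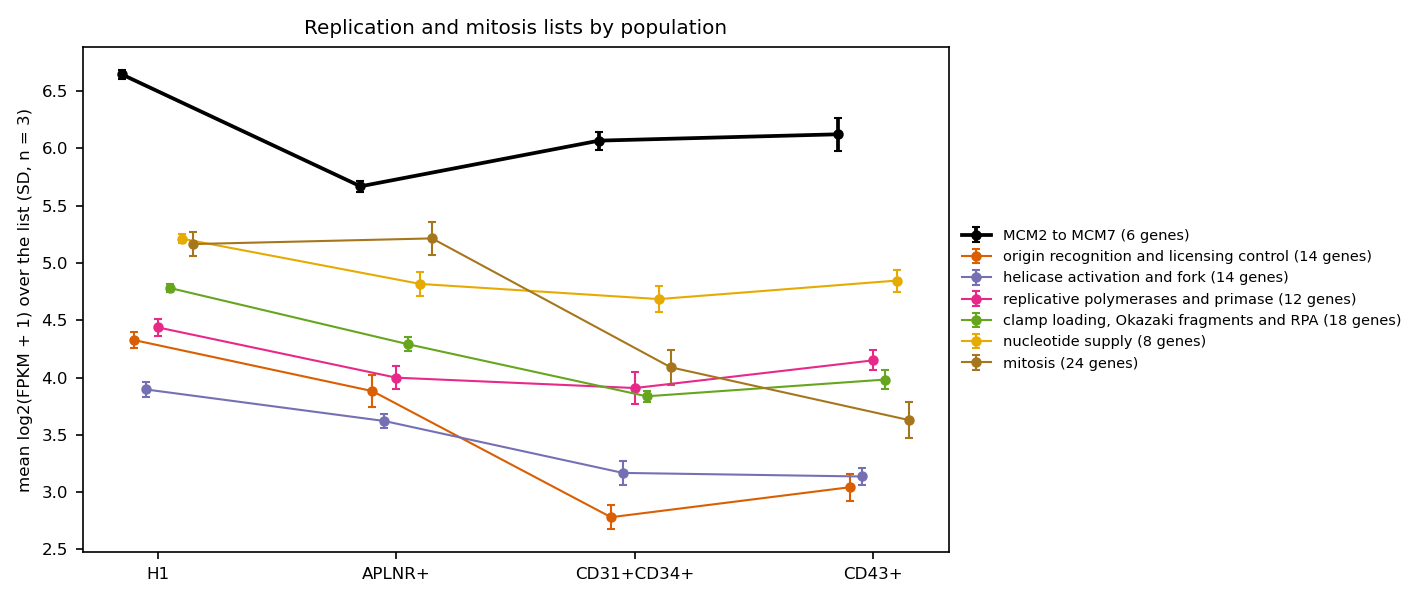
Mean log2(FPKM + 1) over the genes of each list (y axis; bar SD of 3 libraries) by population (x axis). MCM2 to MCM7 (black) fall into APLNR+ and stand higher again in CD31+CD34+ cells, where the origin licensing and mitosis lists stand lower than in APLNR+ cells.

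Over all replication lists, without the members, 41 of 72 genes fell and 3 rose from H1 to APLNR+ (median log2 change -0.40), against 35.2% of all genes lower and 22.7% higher. From APLNR+ to CD31+CD34+ cells 18 rose and 40 fell (median -0.44; all genes 35.9% and 37.9%), and from CD31+CD34+ to CD43+ cells 22 rose and 12 fell (median 0.13; all genes 25.9% and 27.8%). GC-corrected, 6 rose and 36 fell at the first step, 13 and 35 at the second, and 23 and 16 at the third. The GC-corrected shares of all genes were 28.9% higher and 31.7% lower, 33% and 33.2%, and 28.1% and 28.5%. Of 14 genes of E2F factors and pocket proteins, 2 rose and 3 fell at the first step, 3 rose and 6 fell at the second, and 3 rose and 2 fell at the third. GC-corrected, the balance of the second step turned, with 6 higher and 2 lower, against 33% and 33.2% of all genes. E2F1 averaged 8.12, 6.47, 12.7 and 10.6 FPKM and rose at the second step (0.88, adjusted p = 7.24e-05; GC content 62.5%, GC-corrected 0.24, adjusted p = 0.0358). MYBL2, which encodes a MYB factor of mitotic promoters, was highest in the CD31+CD34+ libraries, at 84.5, 111 and 103 FPKM, against 31.9 to 40.3 in APLNR+ and 21.8 to 27.4 in CD43+ libraries (1.44 and -2.003; GC-corrected 0.82 and -1.77).

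How the members varied together is given as a description over the 12 libraries, which share populations and GC trend. MCM6 went most closely with CDC6 (Pearson r = 0.97) and MCM4 (0.93), and MCM2 with MCM7 (0.91), while MCM2 and MCM6 did not go together (-0.15) and MCM2 ran against MKI67 (-0.86). Of the other genes tested, those most like the mean log2(FPKM + 1) of MCM2 to MCM7 were MRPL11, a mitochondrial ribosomal protein gene (r = 0.99), MEST (0.98) and CYB5A (0.98), followed by ACAD8, HMGA1, SFRP1, TIMM8A, TMEM177, METTL3 and MRPS23 (the last at 0.97). MRPL11 averaged 98.4, 52.4, 66.4 and 71.1 FPKM in the 4 populations. Only 2 of these 10 were also in the top 10 by Spearman's rho, and 2 of the listed replication and mitosis genes were among the 100 most alike.

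Replicates carried a shared offset. CDC6, MCM3, MCM6 and MKI67 were lowest in replicate 1 in 4 of 4 populations, and MCM2 was highest there in 3 of 4. Libraries of replicate 1 also had the lowest values of genes in the lowest tercile of GC in each population (medians -0.07 to -0.13 from the population mean). What made replicate 1 differ was not tested. Neighbouring genes were looked at for shared reads: PRKDC, which starts next to MCM4 in the opposite direction, averaged 45.8, 46.4, 31.6 and 30.6 FPKM and did not fall at the first step (0.03, adjusted p = 0.876), where MCM4 did. The miRNA genes MIR25, MIR93 and MIR106B within MCM7 were listed at 0 in all 12 libraries.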

How the data were processed

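RNA-seq libraries of 12 samples (4 populations, 3 replicates each, grouped by title) were used. The authors deposited 1 table of FPKM values per gene symbol. The submitters' processing notes name BWA, Bowtie, RSEM and hg19 without roles, and any scaling between libraries is not given in the sources used here. Total RNA was made into Illumina TruSeq libraries. Summed FPKM ranged from 568036 to 1576040, with 10.4% to 66.2% on small RNA symbols. Read numbers are not in the table, so 3 libraries per population set the precision. Of 58366 lines, 1 held text, and a symbol on several lines (345) kept its highest line.

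The members and lists were chosen with earlier results of these data known. Values were tested as log2(FPKM + 1) for 14840 genes at 1 FPKM or more in at least 3 libraries with limma 3.58.1 (R 4.3.3; 4 populations in a single model, trend) and Benjamini-Hochberg adjustment per comparison, which gives every adjusted p not called exact. Passed means an adjusted p under 0.05, and called means passed and at least 2-fold, in either direction unless one is named. Shares and ratios were compared by exact permutation. Besides the members, genes were picked by rule (the 3 highest of each pathway list, 11 by name, the 10 most alike, overlapping loci). Some genes under this rule are only counted, and these include genes with large changes. Mean FPKM of TFDP2 was 14.1 at the CD31+CD34+ stage, against 56.3 at the CD43+ stage. From the APLNR+ to the CD31+CD34+ stage, NASP went from 147 to 55.6, DTYMK from 33.5 to 70.9 and RNASEH2C from 19.3 to 50.8. GC content came from GENCODE 29 transcripts (98.34% of genes). On simulated data 195 of 200 changed genes were recovered. Other scalings, filters, pseudocounts, a replicate block, left-out libraries and, chosen after seeing the data, corrections for GC and length were tried.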

Additional observations from a re-analysis of the deposited data

How the results depend on the processing

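Of 60 member changes, 43 passed, and 32 of these passed under each of 25 alternatives. A GC correction was chosen after seeing the data. Under it the called members numbered 0 in CD31+CD34+ against APLNR+, 0 in CD43+ against H1 and 1 in CD43+ against APLNR+ (1, 2 and 2 as reported). Of all 14593 genes with a GC content, 2803, 4396 and 3943 were called there. Signs turned for MCM6 (0.051) at the second step, for MCM6 (-0.054), MCM7 (0.066) and CDT1 (0.20) at the third, for MCM2 (-0.094) in CD43+ against H1, and for MCM2 (-0.53) and MCM7 (-0.44) in CD31+CD34+ against H1. With length corrected too, the counts were 0, 0 and 1, and 0 at the third step (2 as reported, PCNA and MKI67). Of all 14593 genes, 2786, 4403, 3946 and 1910 were called there. The changes that had turned were then 0.042, -0.031, 0.037, 0.18, -0.066, -0.52 and -0.43, with MKI67 at -0.048 in CD31+CD34+ against H1 and MCM6 at 0.012 in CD43+ against APLNR+. Without a minimum change, 9, 8, 8, 7 and 8 members were called in APLNR+ against H1, CD31+CD34+ against APLNR+, CD43+ against H1, CD31+CD34+ against H1 and CD43+ against APLNR+, and with 1.5-fold 9, 6 and 8 in the first 3 and 5 in the last (3, 1, 2, 4 and 2 as reported). In the same order, 8594, 10948, 11076, 11473 and 10995 of 14840 genes were called without a minimum change. With 1.5-fold, 5222, 7952 and 8617 genes were called in the first 3 and 8253 in the last. Median-ratio scaling gave 1 in CD43+ against H1 and 2 in CD31+CD34+ against H1, with MCM7 at 0.15 in CD43+ against H1 and MCM4 at 0.059 in CD43+ against APLNR+. Upper-quartile scaling gave 1 in CD43+ against H1, with these genes at 0.13 and 0.068. Quantile normalization gave 1, 2 and 1 called in APLNR+ against H1, CD31+CD34+ against APLNR+ and CD43+ against H1, with MCM7 at 0.017 in the last. Leaving out small RNAs gave 1 in CD31+CD34+ against H1, MCM6 at -0.058 at the third step and MCM7 at 0.026 in CD43+ against H1. A pseudocount of 0.1 gave 2 and replicates 2 and 3 alone 3 in CD31+CD34+ against APLNR+; the latter put MCM7 at 0.077 in CD43+ against H1 and MCM4 at 0.070 in CD43+ against APLNR+. Leaving out 1 library, the counts ranged from 0 to 3 in CD31+CD34+ against APLNR+ and from 1 to 3 in CD43+ against H1, and log2 changes that crossed 0 ranged from -0.11 to 0.038 (MCM7) in CD43+ against H1, -0.061 to 0.11 (MCM2) in CD31+CD34+ against H1, -0.13 to 0.13 (MCM4) in CD43+ against APLNR+, and, at the third step, -0.024 to 0.15 (MCM6), -0.22 to 0.10 (CDC6) and -0.21 to 0.014 (CDT1). The genes most like the MCM mean shared 2 of 10 with those by Spearman's rho. The cause of these shifts was not tested. Replicate numbers were not taken as pairs, because that would need every same-numbered pair to correlate over 0.1, and 12 of 18 did (-0.02 to 0.43). All 6 pairs of replicate 1 did (0.20 to 0.43), and 7 of 12 libraries correlated best with their own number. The labels give no shared origin, and the source of these correlations was not tested. With the number as a block, 3, 1, 2, 2, 4 and 2 members were called in the 6 comparisons, as without it, and 50 member changes passed in place of 43, with 0 lost. The 7 gained included CDC6 and MCM4 at the second step. The 3 libraries per population limit all tests.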
